A study of Homo sapiens and Mus musculus with 36 samples.

Results

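Aminoacyl-tRNA synthetases attach each amino acid to its transfer RNA, and their genes fall into a cytosolic and a mitochondrial set. The genes described here were chosen by symbol alone: 20 cytosolic members (no suffix 2, with EPRS, FARSA and FARSB) and 16 mitochondrial members (suffix 2), 36 of the 26868 gene symbols listed in the human tables. The rule uses no measured value, but the set was proposed with earlier results of these data known. LARS2, the mitochondrial leucyl enzyme gene, had no row in 2 of the 13 comparison tables, so 35 members were present there. A cytosolic gene is named below without the newer suffix 1, except in its RefSeq promoter entry.

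The series holds RNA-seq of 36 libraries, 2 in each of 18 groups. HepG2 and Huh7 are human liver cancer lines and WEHI-231 is a mouse B lymphoma line. HepG2 cells received 5 uM of MS7126 (a PROTAC, a compound built to send EZH2 to degradation), C24 (the matched inhibitor of the EZH2 enzyme) or MS7126N1 or MS7126N2 (analogs without PROTAC activity), against DMSO, for 48 h. Huh7 cells had DMSO or 5 uM of MS7126; their own labels give 24 h, although the labels of other samples say 48 h. WEHI-231 cells received 1 uM of the EZH2 PROTAC MS8815, the enzyme inhibitor EPZ-6438, the non-PROTAC analog MS8815N or DMSO, for 16 h. HepG2 and Huh7 cells were also infected with pLKO.1-puro lentivirus, selected with puromycin, carrying a hairpin against EZH2 (shEZH2) or a control called an empty vector in one label and a scramble in another. In HepG2, 3 further hairpins, #664, #665 and #667, were aimed at SREBF2, the gene of SREBP2, a master regulator of cholesterol genes. Whether paired libraries stem from separate cultures is not labelled, and a p-value then speaks of library-to-library spread alone, which may be technical.

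Cytosolic and mitochondrial synthetases are made from separate nuclear genes, apart from GARS and KARS, whose products serve both compartments. Several cytosolic enzymes join the scaffold proteins AIMP1, AIMP2 and EEF1E1 in the multi-synthetase complex. When charged tRNA runs short, uncharged tRNA activates the kinase GCN2 (gene EIF2AK4), which phosphorylates eIF2 and raises translation of ATF4. ATF4, with C/EBP partners, acts at C/EBP-ATF response elements of amino acid response genes, among them synthetase genes.

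The RefSeq promoter table (GRCh38.p14) holds windows of 250 bases before to 50 bases after each start, and 30 of the 36 members had one. DARS, LARS, VARS, YARS, AARS2 and VARS2 had none. Each window was searched on both strands for one motif, the 8 letters TGATGNAA of the C/EBP-ATF response element. A match was present for 7 of 16 cytosolic members (43.8%), for 1 of 14 mitochondrial members (7.14%), and for 6 of 22 listed amino acid response genes outside the synthetases (27.3%). Of all 35116 windows in the table, 3.62% held it, and of all 27305 gene symbols 4.46% had at least 1 such window. The match describes letters only, and no match says no more than that these letters are not in the window.

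The 250 bases upstream of the start are shown for 3 cytosolic genes with a match, since their matches lie at different distances, and for the first of the WARS1 windows, since WARS had the highest fold change of the members under MS7126 in HepG2. They are read 5′ to 3′ on the strand of the gene, with the match in capitals. A match on the opposite strand appears as its reverse complement, TTGCATCA or TTTCATCA. The AARS1 match begins at -187 from the start (chr16:70289507-70289756, minus strand), the GARS1 match at -33 (chr7:30594628-30594877, plus strand, in 1 of 2 windows) and the IARS1 match at -13 (chr9:92293698-92293947, minus strand). The WARS1 window (chr14:100376328-100376577, minus strand) has no match and no capitals.
AARS1: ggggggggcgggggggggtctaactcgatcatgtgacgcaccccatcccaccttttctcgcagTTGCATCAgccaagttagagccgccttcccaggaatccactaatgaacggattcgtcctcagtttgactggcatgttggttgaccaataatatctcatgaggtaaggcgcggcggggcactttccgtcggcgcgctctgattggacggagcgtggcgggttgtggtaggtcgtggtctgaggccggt
GARS1: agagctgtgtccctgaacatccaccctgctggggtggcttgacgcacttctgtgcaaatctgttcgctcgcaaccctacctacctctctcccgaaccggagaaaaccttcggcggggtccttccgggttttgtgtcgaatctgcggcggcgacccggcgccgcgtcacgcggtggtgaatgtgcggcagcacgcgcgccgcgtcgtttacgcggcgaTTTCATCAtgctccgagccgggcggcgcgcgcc
IARS1: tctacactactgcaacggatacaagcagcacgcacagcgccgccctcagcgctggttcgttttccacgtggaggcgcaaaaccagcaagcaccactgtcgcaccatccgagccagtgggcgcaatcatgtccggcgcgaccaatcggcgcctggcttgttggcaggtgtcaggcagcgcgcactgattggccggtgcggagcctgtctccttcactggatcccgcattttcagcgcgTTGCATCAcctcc
WARS1: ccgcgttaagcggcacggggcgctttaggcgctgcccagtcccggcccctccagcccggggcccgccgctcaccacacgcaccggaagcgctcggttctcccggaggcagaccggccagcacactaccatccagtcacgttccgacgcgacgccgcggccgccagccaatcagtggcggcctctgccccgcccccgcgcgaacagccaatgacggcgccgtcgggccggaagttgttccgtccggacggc

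For the other members with a match, NARS left out, and for 2 amino acid response genes outside the synthetases, 30 bases around the match are shown to compare the sites. CARS1 (chr11:3057407-3057436, minus strand, in 1 of 2 windows) and MARS1 (chr12:57488053-57488082, plus strand) have the match across the start, from -2 and -4. TARS1 (chr5:33440956-33440985, plus strand) has it from 3, just after the start of 1 of its 2 windows. YARS2 (chr12:32756076-32756105, minus strand), the single mitochondrial member with a match, has it at -197. ASNS (chr7:97872458-97872487, minus strand), the asparagine synthetase gene, and CEBPG (chr19:33374060-33374089, plus strand), a C/EBP partner gene of ATF4, have theirs at -68 and -42.
CARS1: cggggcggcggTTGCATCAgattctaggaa
MARS1: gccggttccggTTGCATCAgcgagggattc
TARS1: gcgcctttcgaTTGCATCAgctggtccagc
YARS2: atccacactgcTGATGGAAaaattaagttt
ASNS: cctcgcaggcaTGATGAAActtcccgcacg
CEBPG: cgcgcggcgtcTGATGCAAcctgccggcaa

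Values per library were used for 1 comparison, the EZH2 hairpin in Huh7, whose libraries held 10106193 to 11954322 estimated counts. For 12 comparisons the values are those of the authors' deposited tables, each with a mean over its 4 libraries, a log2 fold change and its standard error (SE). Their means summed to between 16686600 and 40979200 normalized counts. A gene is called higher or lower at an adjusted p under 0.05 over all genes, and control and treated levels from these tables were rebuilt from the mean and the fold change. All 6 hepatocyte markers had rows in every human table and all 6 B cell markers in every WEHI-231 table. EZH2 was lower with its hairpin in Huh7, by edgeR at -2.65 (SE 0.08), but the authors' deposited table had it higher, 0.90 (SE 0.38), in the HepG2 libraries labelled shEZH2. SREBF2 was at -1.58, -1.08 and -2.35 in the authors' deposited tables of hairpins #664, #665 and #667.

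MS7126 in HepG2 was accompanied by higher RNA of 13 of the 20 cytosolic synthetase genes, while 1 was lower and 6 were not called. None of the 15 mitochondrial members with an adjusted p was called in the authors' deposited table; LARS2 had none there. Of these, 2, MARS2 and RARS2, had an unadjusted p under 0.05. Of the 12923 genes with an adjusted p in that table, 7.44% were called higher and 8.06% lower. The median log2 fold change in the authors' deposited table was 0.74 over the cytosolic members, -0.01 over the mitochondrial members and 0.01 over all genes tested. A change in all cells and a change in a share of the cells cannot be told apart in such bulk libraries.

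WARS, the tryptophanyl enzyme gene, had the highest fold change of the members: the authors' deposited table placed it at 699 normalized counts in DMSO and 2783 under MS7126, 3.98 times as much (log2 1.99, SE 0.17, adjusted p = 7.47e-29). SARS, for the seryl enzyme, went from 978 to 2830 in the authors' deposited table (log2 1.53, SE 0.16). MARS, the methionyl enzyme gene, whose product also charges the initiator tRNA, went from 1515 to 4090 (log2 1.43, SE 0.19, authors' deposited table). GARS (1.40, SE 0.15), CARS (1.36, SE 0.19) and IARS (1.34, SE 0.25), for glycine, cysteine and isoleucine, followed on the log2 scale in the authors' deposited table. These 6 genes were each more than 2-fold higher. YARS at 1.16 and TARS at 1.14, for tyrosine and threonine, were also above 2-fold in the authors' deposited table, and LARS, AARS, EPRS, FARSB and RARS lay between 0.57 and 0.78.

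The glutaminyl enzyme gene QARS went the other way. The authors' deposited table gave it 2789 normalized counts in DMSO and 1911 under MS7126 (log2 -0.55, SE 0.16, adjusted p = 0.00936). NARS (0.53), VARS (0.27), FARSA (0.27), KARS (0.18), HARS (0.13) and DARS (-0.01) were not called in the authors' deposited table. The subunits of the phenylalanyl enzyme, FARSA and FARSB, thus had 0.27 (SE 0.15) and 0.69 (SE 0.15), with 1 of the 2 called in the authors' deposited table.

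**Figure D1:**
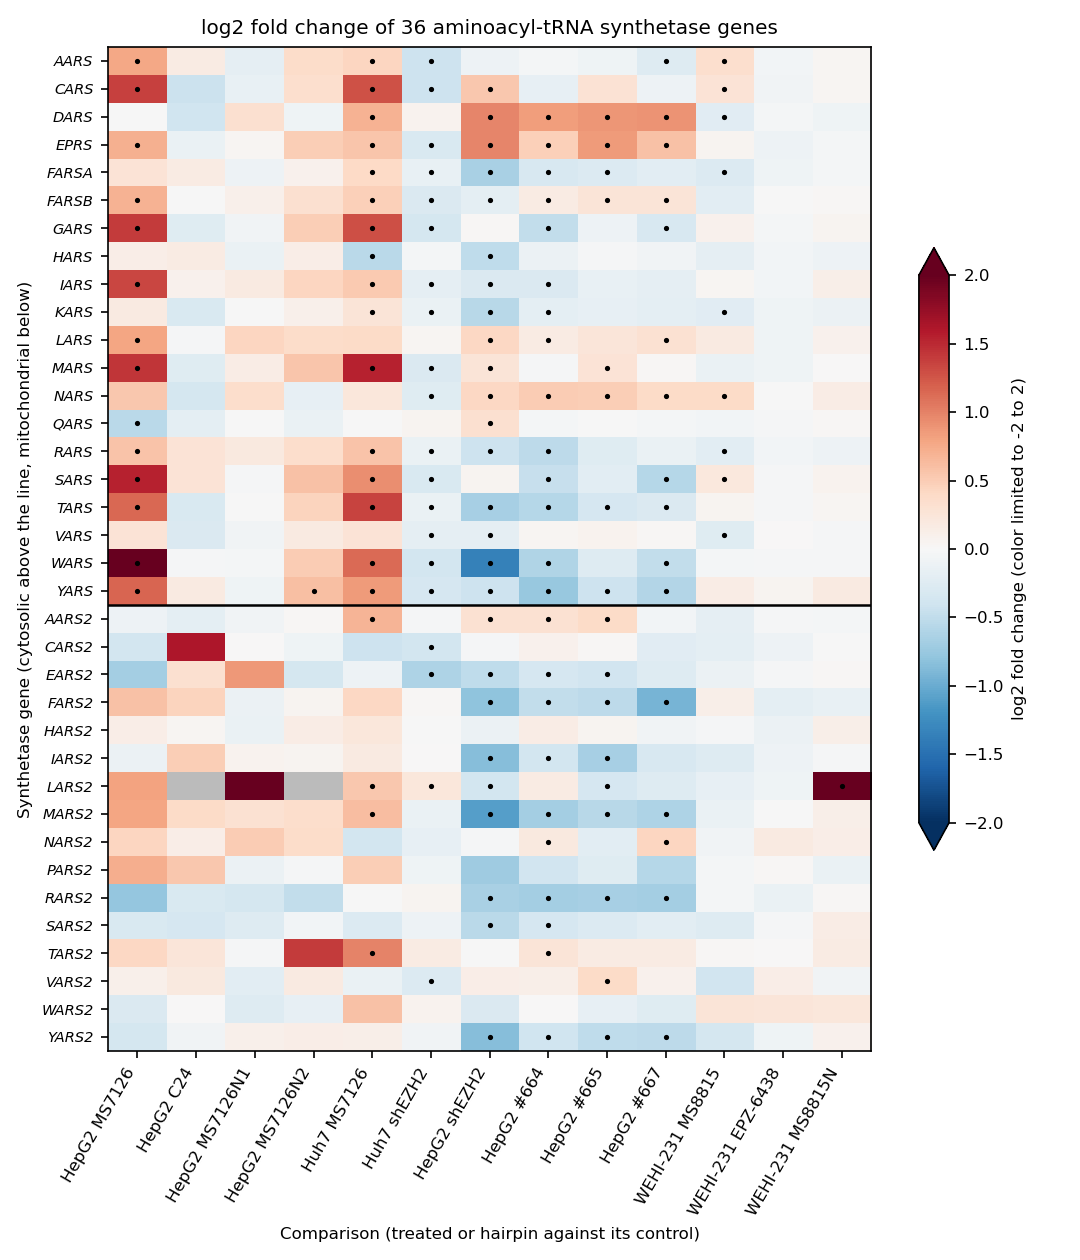
Log2 fold change (color) of the 36 synthetase genes (rows, cytosolic above the line) in the 13 comparisons (columns, each against its control); dots mark genes called at an adjusted p under 0.05 and grey marks a gene with no row. The red dotted cells of the cytosolic rows are densest under MS7126, with 13 called higher in HepG2 and 15 in Huh7. The Huh7 EZH2 hairpin column holds 16 called lower, by edgeR, where the other columns use the authors' deposited adjusted p.

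Pairs of genes for the same amino acid were set side by side within the HepG2 MS7126 table. Of 13 pairs that share a stem symbol, the cytosolic gene had the higher log2 fold change in 11, and in 8 the 95% interval of the difference lay above 0. The interval adds the variances of both genes, and no test was run over the pairs. WARS exceeded WARS2 by 2.28 (95% interval 1.60 to 2.96), SARS exceeded SARS2 by 1.83 (1.21 to 2.46) and CARS exceeded CARS2 by 1.72 (1.16 to 2.28), from the authors' deposited values. HARS and HARS2 differed by -0.01 (-0.84 to 0.82), from the same authors' deposited table. The mitochondrial genes are measured less closely: their median mean level was 309 normalized counts against 2127 for the cytosolic genes, and their median SE 0.32 against 0.17 in the authors' deposited table. For 9 of the 16 mitochondrial members the 95% interval lay wholly under the cytosolic median of 0.74. The part of precision in the lack of mitochondrial calls was not tested.

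Within the cytosolic set, the members of the multi-synthetase complex and the free enzymes both held calls. Among the 8 complex members, 5 were higher and 1, QARS, lower in HepG2 with MS7126 (median 0.64, authors' deposited table), and among the 12 others 8 were higher and 0 lower (median 0.95). No test of the difference between these lists was run. The scaffold gene AIMP2 was higher, at 1.37 (SE 0.23), and AIMP1 (0.36, SE 0.80) and EEF1E1 (0.36, SE 0.23) were not called in the authors' deposited table. Of the 7 cytosolic genes whose promoter holds the printed motif, 6 were called higher, all but NARS, with a median of 1.34 in the authors' deposited table. Of the 9 with a window and no match, 5 were higher and 1 lower (median 0.57), and they include WARS and SARS, the highest fold changes of all.

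The other genes of the pathway come from fixed lists. ATF4 itself was at 0.70 (SE 0.12) and the eIF2 phosphatase subunit PPP1R15A at 2.28 (SE 0.19) in the authors' deposited table, both called higher, and EIF2AK4 at 0.47 (SE 0.19, adjusted p = 0.0827) was not called. Among 9 measured genes of uncharged tRNA sensing, 4 were higher and none lower. Of 28 amino acid response genes outside the synthetases, 24 were higher and 1, ALDH18A1, lower, with ASNS at 3.29 (SE 0.17) and SLC7A11, the cystine transporter gene, at 2.70 (SE 0.20) in the authors' deposited table. XPOT, which exports tRNA from the nucleus, was higher at 1.08 (SE 0.20, authors' deposited table). Of 8 cytosolic elongation and termination factors, 2 were higher and 1 lower, the last being EEF1A1, the factor that carries charged tRNA to the ribosome, at -0.81 (SE 0.11) in the authors' deposited table. None of 15 mitochondrial translation genes was called. Hepatocyte markers moved alongside, with 5 of 6 lower (median -0.86, authors' deposited table), and their part in these values was not tested.

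**Figure D2:**
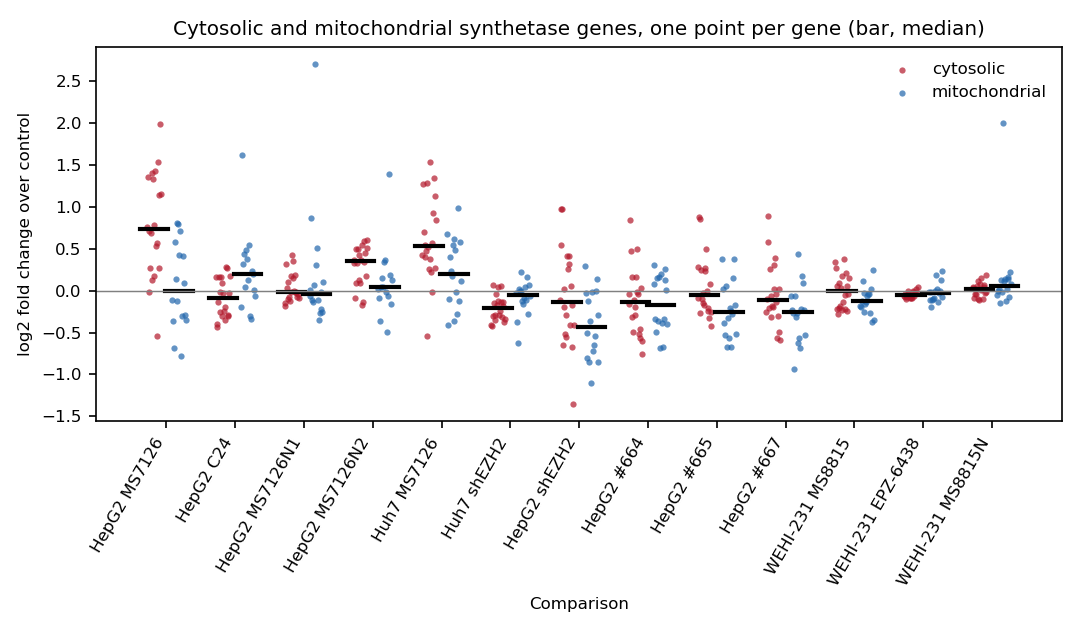
Log2 fold change over the control (vertical axis) of each cytosolic (red) and mitochondrial (blue) synthetase gene in the 13 comparisons, with a black bar at the median. Under MS7126 in HepG2 the medians are 0.74 and -0.01, and the mitochondrial points spread widely on both sides of 0.

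The related compounds were compared in HepG2 at the same dose and time. With C24 none of the 20 cytosolic members and the 12 mitochondrial members with an adjusted p was called in the authors' deposited table (FARS2, HARS2 and PARS2 had none, and LARS2 no row), where 3.01% of 8146 tested genes were higher and 4.01% lower. CARS, DARS, NARS and IARS2 had an unadjusted p under 0.05 there, the first 3 at negative values (-0.43, -0.40 and -0.35) and IARS2 at 0.49, in the authors' deposited table. With MS7126N1 no member was called in the authors' deposited table either, beside 0.0744% of 18817 genes higher and 0.0850% lower. LARS, at 0.43, was the single member with an unadjusted p under 0.05 in the authors' deposited table. With MS7126N2 the tyrosyl enzyme gene YARS was higher, at 0.60 (SE 0.16, adjusted p = 0.0312), and no other member was called in the authors' deposited table, beside 0.362% of 14936 genes higher and 0.341% lower.

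The cytosolic members were nonetheless placed mostly above 0 with MS7126N2. A positive value was found for 17 of 20 in the authors' deposited table, the median was 0.36 against -0.01 over all genes tested, and 9 had an unadjusted p under 0.05, each positive. The mitochondrial median was 0.05 in the authors' deposited table. TARS2 was the single mitochondrial member with an unadjusted p under 0.05 there, at 1.40, the highest value of all members with this compound. SARS had 0.59 (SE 0.17, adjusted p = 0.0886), MARS at 0.55 (SE 0.17) and WARS at 0.52 (SE 0.20) in the authors' deposited table. Amino acid response genes outside the synthetases had 11 of 28 higher and none lower, with ASNS at 1.91 (SE 0.18) in the authors' deposited table. The medians of the cytosolic members were -0.08 with C24 and -0.01 with MS7126N1, from the authors' deposited tables.

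Differences between compounds were tested as the difference of the authors' deposited log2 fold changes divided by the square root of their added squared SEs (normal, two-sided), adjusted over all genes in both tables. In HepG2, 3 of the 5 pairs of compounds were compared. MS7126 exceeded C24 in 12 cytosolic genes and was below it in 0, beside 1.87% and 2.84% of 18041 genes. For WARS the difference was 2.02 (95% interval 1.52 to 2.52), for CARS 1.80 (1.25 to 2.34), for MARS 1.68 (1.16 to 2.20) and for GARS 1.65 (1.24 to 2.07). AARS differed by 0.61 (0.19 to 1.02), with an adjusted p of 0.0742. MS7126 exceeded MS7126N1 in 9 cytosolic genes, beside 1.32% of 18117 genes higher and 1.93% lower, with WARS at 2.03 (1.46 to 2.61) and SARS at 1.56 (1.10 to 2.03).

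Against MS7126N2, 5 cytosolic genes differed: WARS by 1.48 (95% interval 0.96 to 2.00), CARS by 1.03 (0.46 to 1.60), SARS by 0.94 (0.48 to 1.40), GARS by 0.91 (0.44 to 1.38) and MARS by 0.88 (0.39 to 1.38), beside 0.443% of 18039 genes higher and 0.909% lower. All 5 were higher with MS7126. YARS, the member called with MS7126N2 itself, differed by 0.56 (0.10 to 1.01), with an adjusted p of 0.432. The other cytosolic differences did not pass, and their intervals leave room for sizeable values, as for IARS at 0.92 (0.18 to 1.66). No mitochondrial member differed in any of the 3 HepG2 pairs by this test, and at an unadjusted p under 0.05 there was 1, EARS2 against MS7126N1, at -1.55 (-2.77 to -0.32). The 3 comparisons share their DMSO libraries, and this test leaves that covariance out. With a covariance assumed for them, 8 cytosolic genes differed from MS7126N2, with IARS, TARS and YARS added, and 1 mitochondrial gene, EARS2, from MS7126N1.

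**Figure D3:**
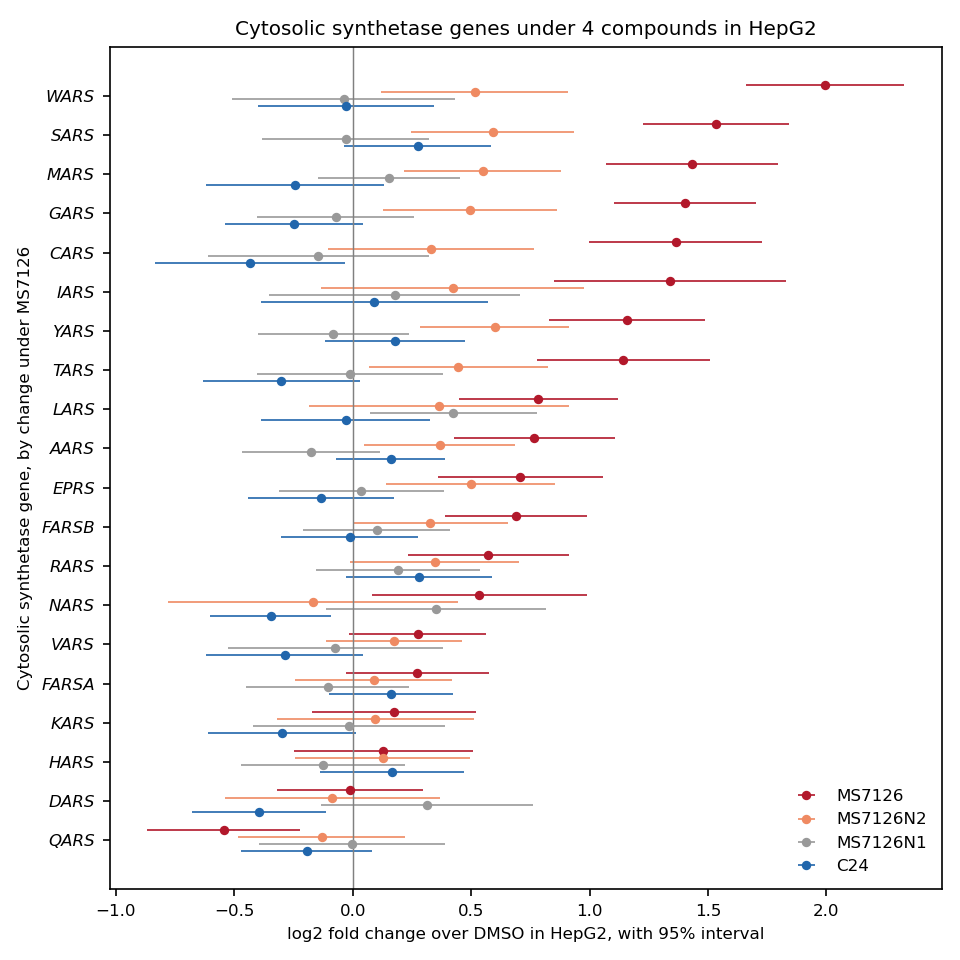
Log2 fold change over DMSO in HepG2 with its 95% interval (horizontal axis) for the 20 cytosolic synthetase genes, ordered by their change under MS7126 (dark red), beside MS7126N2 (orange), MS7126N1 (grey) and C24 (blue). For WARS the MS7126 point at 1.99 lies clear of the MS7126N2 point at 0.52, and at QARS the MS7126 point is the one at -0.55.

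In Huh7, MS7126 was accompanied by higher RNA of 15 of 20 cytosolic genes and 4 of 16 mitochondrial genes, with 1 cytosolic gene lower. Of 15956 genes with an adjusted p in the authors' deposited table, 17.5% were higher and 16.3% lower. The medians in the authors' deposited table were 0.53 for cytosolic members, 0.20 for mitochondrial members and -0.01 over all genes tested. This table shares no control with another, so its direction rests on the series' description.

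MARS was highest, at 4746 normalized counts in DMSO and 13744 with MS7126 in the authors' deposited table (log2 1.53, SE 0.11, adjusted p = 2.34e-40). TARS (1.35, SE 0.12), GARS (1.29, SE 0.10), CARS (1.27, SE 0.14) and WARS (1.13, SE 0.14) were also more than 2-fold higher in the authors' deposited table. SARS (0.93), YARS (0.84), DARS (0.70), RARS (0.57), EPRS (0.55), IARS (0.52), FARSB (0.48), AARS (0.43), FARSA (0.40) and KARS (0.26) were called higher at smaller values in the authors' deposited table. LARS (0.38), VARS (0.27), NARS (0.22) and QARS (-0.01) were not called there.

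The histidyl enzyme gene HARS was lower: the authors' deposited table gave 1166 normalized counts in DMSO and 800 with MS7126 (log2 -0.54, SE 0.15, adjusted p = 0.00146). HARS and HARS2 lie head to head on chromosome 5, HARS1 on the minus strand and HARS2 on the plus strand, and their promoter windows share 184 bases (chr5:140691321-140691504). HARS2, at 0.23 (SE 0.19), was not called in the authors' deposited table, and HARS lay below HARS2 by -0.77 (95% interval -1.25 to -0.30). No test of the pair was run.

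The mitochondrial members called in Huh7 were TARS2, which went from 492 to 977 normalized counts (log2 0.99, SE 0.17), AARS2 (0.68, SE 0.16), MARS2 (0.62, SE 0.22) and LARS2 (0.54, SE 0.22), all higher in the authors' deposited table. The cytosolic gene exceeded its mitochondrial counterpart in 10 of 13 pairs, with an interval above 0 in 5 and below 0 in 1, the histidyl pair. Against the cytosolic median of 0.53, the 95% interval lay wholly below for 8 of the 16 mitochondrial genes and wholly above for 1, TARS2. The median SE was 0.12 for cytosolic and 0.21 for mitochondrial members in the authors' deposited table.

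The cytosolic genes with a promoter match had 6 of 7 called higher in Huh7 (median 1.27, authors' deposited table), all but NARS, and those with a window and no match 7 of 9 higher and 1 lower (median 0.48). EIF2AK4, the sensor kinase gene, was higher at 1.62 (SE 0.16), ATF4 at 1.64 (SE 0.11) and PPP1R15A at 2.62 (SE 0.14) in the authors' deposited table. Of 28 amino acid response genes 23 were higher and 2, ALDH18A1 and PSPH, lower. AIMP2 (0.84, SE 0.14) and AIMP1 (0.88, SE 0.20) were higher and EEF1E1 (-0.49, SE 0.17) lower in the authors' deposited table. Mitochondrial translation genes had 5 of 15 higher and 2 lower, and QRSL1, a subunit of the amidotransferase that makes mitochondrial glutaminyl-tRNA from the product of EARS2, was higher at 0.61 (SE 0.18, authors' deposited table). Of 6 hepatocyte markers, 5 were lower (median -0.93, authors' deposited table), and their part was not tested.

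Set beside HepG2, the lists called higher under MS7126 shared 12 cytosolic genes, 12 of the 13 in HepG2 and 12 of the 15 in Huh7. Over the 12217 genes with an adjusted p in both of the authors' deposited tables, 540 were called higher in both, 58.2% of those in HepG2 and 22.1% of those in Huh7. These lines have separate controls. LARS was called in HepG2 alone, and DARS, FARSA and KARS in Huh7 alone. A test of the difference between the lines, chosen after seeing the data, passed for 3 members, beside 3.06% of 16334 genes higher in HepG2 and 2.65% lower. WARS was further up in HepG2 by 0.87 (95% interval 0.43 to 1.30, adjusted p = 0.0039) and SARS by 0.61 (0.21 to 1.00, adjusted p = 0.0478), while DARS was lower in HepG2 by -0.71 (-1.10 to -0.33, adjusted p = 0.00975). For LARS, FARSA and KARS the difference did not pass this test. Line and time differ together by the labels of these samples, 48 h against 24 h, and cannot be told apart.

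**Figure D4:**
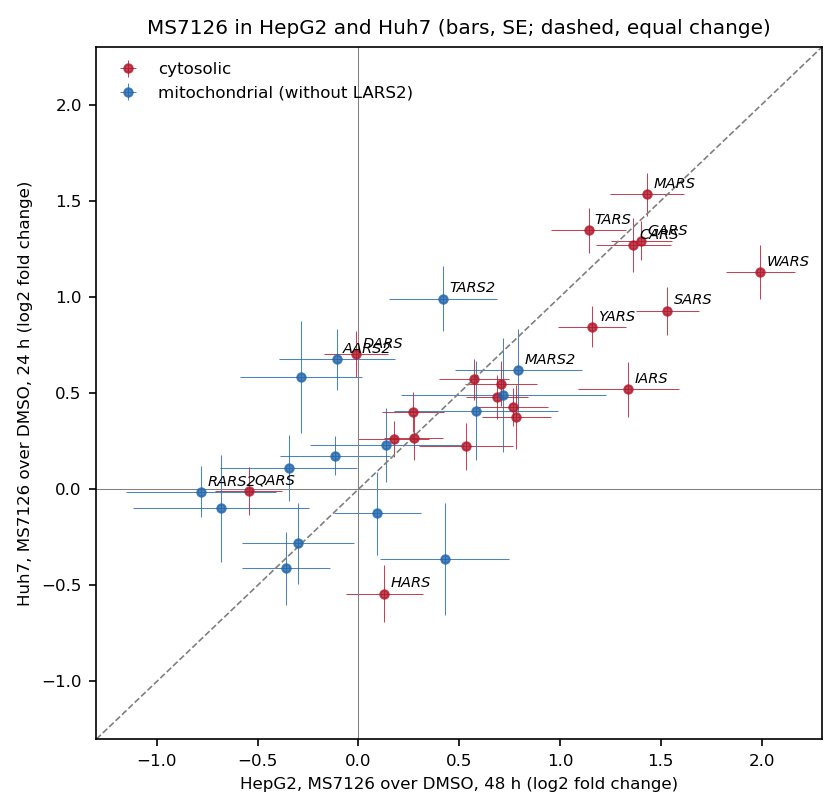
Log2 fold change under MS7126 over DMSO in HepG2 at 48 h (horizontal) and in Huh7 at 24 h by its own labels (vertical), with SE bars, for cytosolic (red) and mitochondrial (blue, LARS2 left out for its low level in HepG2) genes; the dashed line marks equal change. MARS lies near the dashed line at 1.43 and 1.53, WARS to its right at 1.99 and 1.13, and DARS above it at -0.01 and 0.70.

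The EZH2 hairpin in Huh7 is the comparison with values per library. By edgeR's quasi-likelihood test 16 of 20 cytosolic genes were lower and none higher, and of 16 mitochondrial genes 3 were lower and 1 higher, beside 19.3% lower and 19.5% higher of 14581 genes tested. The median log2 fold change was -0.21 over the cytosolic and -0.05 over the mitochondrial members. The cytosolic values ran from -0.42 for CARS to 0.07 for DARS.

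AARS, the alanyl enzyme gene, had 491 and 483 CPM (counts scaled to library size) in the control libraries and 361 and 372 with the hairpin (log2 -0.41, SE 0.03, edgeR adjusted p = 6.18e-09). Both hairpin libraries were below both controls. CARS had 50.3 and 54.9 CPM in the controls and 41.4 and 37.1 with the hairpin (-0.42, SE 0.07). WARS had 77.6 and 68.4 CPM against 57.4 and 56.0 (-0.37, SE 0.06), and the groups did not overlap. GARS had 267 and 275 CPM against 210 and 214 (-0.35, SE 0.03). In EPRS, the bifunctional glutamyl-prolyl enzyme gene, 291 and 306 CPM in the controls stood against 244 and 241 (-0.30, SE 0.03). DARS, HARS, LARS and QARS were the 4 cytosolic genes not called, at 0.07, -0.04, 0.04 and 0.05.

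EARS2, the mitochondrial glutamyl enzyme gene, had the lowest value of all members, with 29.8 and 31.6 CPM in the controls and 19.8 and 20.1 with the hairpin (log2 -0.62, SE 0.08, edgeR adjusted p = 2.33e-05). CARS2 had 23.3 and 20.1 CPM against 17.4 and 16.3 (-0.37, SE 0.10), and VARS2 20.1 and 18.2 CPM against 15.6 and 16.1 (-0.28, SE 0.10). LARS2 was higher, with 42.7 and 45.1 CPM in the controls and 53.1 and 49.5 with the hairpin (0.22, SE 0.07). Of these 4 calls, EARS2 alone was also made by DESeq2 and in the authors' deposited table. Left-out libraries ended some of the mitochondrial calls too, with 1 left without control library 1 and 2 left without either hairpin library. The cytosolic count was 13 by DESeq2 and in the authors' deposited table, where FARSA, RARS and TARS were not called.

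**Figure D5:**
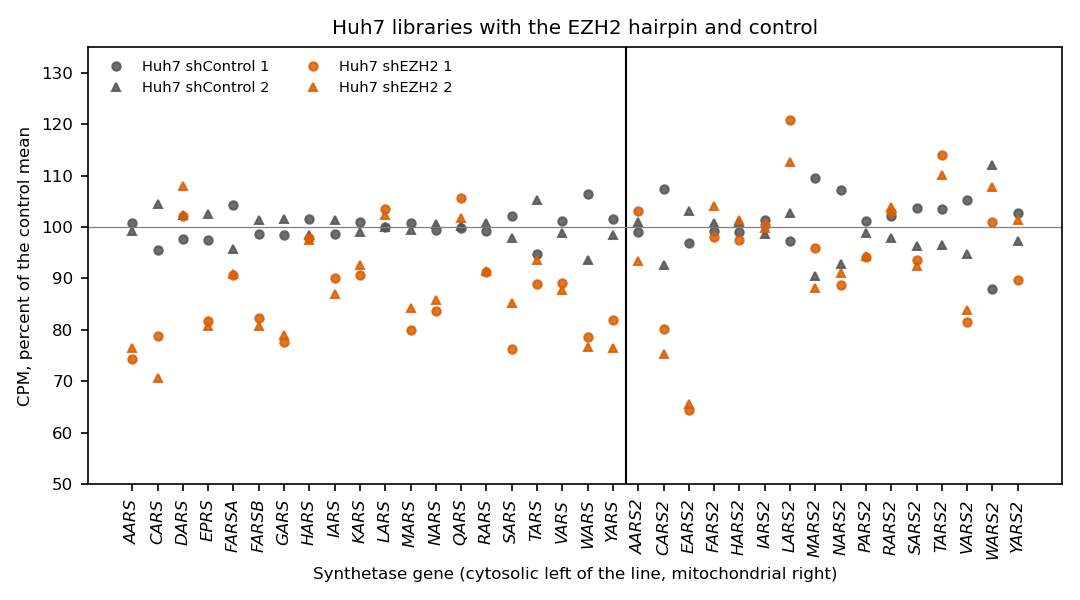
CPM of each synthetase gene in the 4 Huh7 hairpin libraries as a percent of the control mean (vertical axis), control libraries in grey and EZH2 hairpin libraries in orange. Most orange cytosolic points lie below the grey ones, for AARS at 361 and 372 CPM against 491 and 483, and among mitochondrial genes EARS2 is lowest.

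By edgeR all 7 cytosolic genes with a promoter match were lower (median -0.28), of which TARS was not called by DESeq2 or in the authors' deposited table, as were 7 of the 9 with a window and no match (median -0.14). Of the 8 complex members 5 were lower (median -0.13), and of the 12 others 11 (median -0.30). ATF4 was lower too, at -0.18 (SE 0.03), with 303 and 290 CPM in the controls and 260 and 264 with the hairpin. EIF2AK4 was higher at 0.22 (SE 0.08). Amino acid response genes had 15 of 28 lower and 2 higher. AIMP1 (-0.14) and AIMP2 (-0.04) were not called. Of 6 hepatocyte markers, 4 were lower and 2 higher by edgeR, and their summed level was 263147 normalized counts in the controls and 211931 with the hairpin. Of 5 fibroblast markers 3 were measured and 2 were higher, with a summed level of 142 and 740 normalized counts, and COL1A1 and DCN had no row. The part of these markers in the synthetase values was not tested.

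The same controls allow the levels to be compared between genes per length, as CPM per kilobase of exon (all bases in any GENCODE v29 basic exon of the gene). This length can exceed that of the transcripts present, so the order of genes may depend on it. No other length was tried. Control means ran from 13.5 for HARS to 145 for KARS in the cytosolic set, with a median of 54.4, and from 3.27 for PARS2 to 56.9 for IARS2 in the mitochondrial set, with a median of 7.67. KARS (146 and 143 CPM per kilobase in the 2 libraries) and AARS (141 and 139) led, and their libraries lay close together. GARS followed at 102 and MARS at 98.5. IARS2 (56.9) and RARS2 (38.2) lay within the cytosolic range and well above the other mitochondrial genes. YARS2 (15.0) was also above HARS, the lowest cytosolic gene.

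In HepG2, the libraries labelled shEZH2 had 7 cytosolic genes higher and 10 lower and, of the mitochondrial genes, 1 higher and 8 lower, beside 28.4% and 28.6% of 17348 genes in the authors' deposited table. EZH2 itself was higher in these libraries, so no direction is drawn for its loss. WARS was lowest, at 1579 normalized counts in the control and 618 in the labelled libraries (log2 -1.35, SE 0.11, authors' deposited table). DARS and EPRS were highest, both at 0.98 (SE 0.05) in the authors' deposited table. The mitochondrial member MARS2 was at -1.10 (SE 0.18), and IARS2 and YARS2 were at -0.85 in the authors' deposited table. AIMP2 was at -3.04 there.

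The 3 SREBF2 hairpins share their control libraries with one another and with the libraries labelled shEZH2, so their values are given side by side and not as repeats. Hairpin #664 had 5 cytosolic genes higher and 9 lower and 3 mitochondrial genes higher and 7 lower, beside 24.9% and 26.8% of 17682 genes in the authors' deposited table. Hairpin #665 had 5 and 3 cytosolic and 2 and 7 mitochondrial genes, beside 18.7% and 20.0% of 17249 genes in the authors' deposited table. Hairpin #667 had 5 and 6 cytosolic and 1 and 4 mitochondrial genes, beside 18.6% and 19.3% of 16530 genes in the authors' deposited table. The shares of cytosolic calls are thus near the background in several of these counts. Further above it were the 9 of 20 cytosolic genes lower with #664, and the 7 of 16 mitochondrial genes lower with #664 and with #665. The shares of mitochondrial genes called higher lay below it with each hairpin. No test of these shares was run. Cytosolic medians were -0.14, -0.06 and -0.12, and mitochondrial medians -0.16, -0.26 and -0.25, in the authors' deposited tables.

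Members called in the same direction with each of the 3 hairpins are listed with the value in the libraries labelled shEZH2, which share those controls. How many of all genes were called the same way with all 3 was not counted. The list is therefore not read as particular to the synthetases. What the shared control libraries contribute to these values was not tested. DARS, the aspartyl enzyme gene, was called higher at 0.84 (SE 0.04), 0.88 (SE 0.11) and 0.89 (SE 0.09) in the authors' deposited tables of #664, #665 and #667, beside 0.98 in the libraries labelled shEZH2. EPRS was called higher at 0.48, 0.86 and 0.58 (labelled shEZH2 0.98), and NARS, the asparaginyl enzyme gene, at 0.50, 0.49 and 0.39 (0.42) in the authors' deposited tables. FARSB was called higher at 0.16, 0.25 and 0.26 in the authors' deposited tables, beside -0.19 in the libraries labelled shEZH2. YARS was called lower at -0.76, -0.42 and -0.58 (labelled shEZH2 -0.41), and TARS at -0.57, -0.33 and -0.30 (-0.67), in the authors' deposited tables. Among mitochondrial genes RARS2, for arginine, was lower at -0.68, -0.67 and -0.68 (labelled shEZH2 -0.65), and MARS2 at -0.69, -0.56 and -0.62 (-1.10), in the authors' deposited tables. YARS2 was lower at -0.40, -0.51 and -0.53 (labelled shEZH2 -0.85), and FARS2, for phenylalanine, at -0.49, -0.53 and -0.93 (-0.81), in the authors' deposited tables. The scaffold genes parted: AIMP2 was lower at -1.74, -1.56 and -1.15 (labelled shEZH2 -3.04) and AIMP1 higher at 0.42, 0.47 and 0.92 (0.68) in the authors' deposited tables. Of 6 hepatocyte markers, 4 were higher and 1 lower with #664, 1 and 3 with #665, 3 and 2 with #667, and 4 and 2 in the libraries labelled shEZH2, and their part was not tested.

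In WEHI-231, MS8815 had 4 cytosolic genes higher and 5 lower, and none of the 16 mitochondrial genes called, beside 5.34% of 10671 genes higher and 11.8% lower in the authors' deposited table. Of the mitochondrial genes 4 (IARS2, SARS2, VARS2 and YARS2) had an unadjusted p under 0.05, each at a negative value. NARS went from 1566 to 2034 normalized counts (log2 0.38, SE 0.10, authors' deposited table), and AARS (0.34, SE 0.06), CARS (0.27, SE 0.08) and SARS (0.21, SE 0.07) were higher as well. VARS, with the highest mean of the members here, went from 12086 to 10236 (-0.24, SE 0.05, authors' deposited table). FARSA (-0.28), KARS (-0.23), DARS (-0.22) and RARS (-0.21) were the other genes called lower in the authors' deposited table. Of the 5 lower genes 3 (DARS, KARS and RARS), and of the 4 higher genes 0, are members of the multi-synthetase complex, which holds 8 of the 20 cytosolic members. Adjusted over every gene with a p-value, DARS and RARS were no longer called, which leaves 1 complex member, KARS, among 3 lower genes. WARS, at -0.04 (SE 0.09), was not called in the authors' deposited table. Amino acid response genes had 17 of 26 measured members higher and 2 lower, with NUPR1 highest at 4.39 in the authors' deposited table.

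EPZ-6438 gave no call among the members in the authors' deposited table, and no member had an unadjusted p under 0.05, beside 0.122% of 14790 genes higher and 0.122% lower. MS8815N gave 1 call in the authors' deposited table, Lars2, beside 0.0501% of 15954 genes higher and 0.0689% lower, and YARS was the other member with an unadjusted p under 0.05. Lars2 went from 1086 to 4356 normalized counts with MS8815N (log2 2.00, SE 0.11, adjusted p = 9.56e-65, authors' deposited table). Its values were -0.16 (SE 0.13) with MS8815 and -0.08 (SE 0.13) with EPZ-6438 in the authors' deposited tables, and its rebuilt DMSO level lay between 1086 and 1156 normalized counts in the 3 tables.

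The remaining 2 of the 5 pairs of compounds were compared in WEHI-231 at the same dose and time. Between MS8815 and EPZ-6438, AARS differed by 0.40 (95% interval 0.21 to 0.59) and VARS by -0.26 (-0.38 to -0.13), beside 0.872% of 15834 genes higher with MS8815 and 2.22% lower, and no mitochondrial member passed (1, VARS2, at an unadjusted p under 0.05). Between MS8815 and MS8815N, LARS2 differed by -2.16 (-2.50 to -1.83), beside 0.514% of 15773 genes higher and 1.47% lower, and no cytosolic member passed (2, AARS and VARS, at an unadjusted p under 0.05). For AARS the interval against MS8815N was 0.11 to 0.50, and for VARS -0.38 to -0.06, so smaller differences are not shown to be absent. With a covariance assumed for the shared DMSO libraries, 7 cytosolic genes and 1 mitochondrial gene, VARS2, differed between MS8815 and EPZ-6438, and 2 cytosolic genes, AARS and VARS, and 2 mitochondrial genes, LARS2 and SARS2, between MS8815 and MS8815N.

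LARS2 also varied in level between the HepG2 experiments. Its mean was 3.19 normalized counts in the MS7126 table and 4.08 in the MS7126N1 table, and it had no row with C24 or MS7126N2, against 816 to 1303 in the 4 hairpin tables of HepG2 (authors' deposited tables). In the Huh7 MS7126 table it was 413. The LARS2 values of the HepG2 compound experiment, 0.80 (SE 2.03) with MS7126 and 2.71 (SE 2.58) with MS7126N1 in the authors' deposited tables, carry SEs too wide to place the gene.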

How the data were processed

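RNA was sequenced from 36 libraries, grouped by the sample labels. STAR 2.4.2 and Salmon, with builds GRCh38 and mm10, are named per the submitters' processing notes, and Salmon's version is not given in the sources used here. One of 2 library kits was used, per the labels' protocols, which do not say which. The authors deposited 13 tables. Per the file headers, each holds a mean normalized signal per gene (normalized counts), a log2 fold change with its SE, a test statistic (a score), a p-value and its adjusted value. Estimated counts of each library, deposited by the authors and not always whole, are in the Huh7 shEZH2 table.

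These were rounded for edgeR 4.0.16 (R 4.3.3; TMM scaling, quasi-likelihood test), which replaces the planned choice between whole counts and normalized values. Of 15228 rows, 20 with dates for symbols were left out. The common biological coefficient of variation was 0.0187, and the 2 libraries of each group differed beyond sampling (chi-square per degree of freedom 1.63 and 1.54). The SE of edgeR values is the size of the fold change over the root of the F statistic. Adjusted p-values printed for the 12 other comparisons are the authors' deposited values. CPM used the TMM-scaled library sizes. The differences between compounds were computed with scipy 1.17.1. The sign of fold changes was checked by rebuilding control levels: for tables with shared controls these matched as deposited, with an interquartile range of at most 0.0573 on the log2 scale against at least 0.133 with 1 sign turned. In the Huh7 EZH2 hairpin comparison, the log2 ratio of library means missed the deposited log2 fold change of the members by at most 0.00438. For the 12 other comparisons, the rebuilt levels could not be checked against libraries.

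On simulated data for the Huh7 shEZH2 comparison (14344 genes), edgeR found 83 of the 101 set to 2-fold and 95 of the 98 set to 4-fold, and 5 of its 183 calls were false. The simulated counts used the same common biological coefficient of variation for every gene. Changes smaller than 2-fold, such as those of the members, were not simulated. The false calls and recovery in this simulation therefore do not give those of the real hairpin libraries. For MS7126 minus MS7126N1 (14684 genes), the difference test recovered 124 of 200 genes changed 4-fold, with 10 false calls. Its simulated fold changes were independent, with the deposited SEs taken as exact. The real comparisons share their DMSO libraries, so these counts do not give the error rate on the real data. Promoters are from RefSeq (GRCh38.p14). Every member of the synthetase lists could be named, with those of the sensing, scaffold and tRNA quality lists and up to 4 of each other list. The members and lists were chosen with earlier results of these data known, so no pattern here is independent support of those. Alternatives were DESeq2 1.42.0, its size factors, no filter on low counts, a replicate block, left-out libraries, an adjusted p under 0.01, adjustment over every gene and a covariance for shared controls.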

Additional observations from a re-analysis of the deposited data

Results flagged for a closer look

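The changes of 3 cytosolic genes under MS7126 differed between HepG2 and Huh7 by the test of the difference of the authors' deposited log2 fold changes, a comparison chosen after seeing the data. WARS was higher in HepG2 by 0.87, SARS was higher in HepG2 by 0.61, and DARS was lower in HepG2 by -0.71. All 3 passed at an adjusted p under 0.05 and also where genes needed a mean of at least 10 in both tables. Cell line and treatment time differ together and cannot be told apart.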

How the results depend on the processing

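No member called in the main or an alternative run changed direction. Only the Huh7 EZH2 hairpin comparison could show such a change. Elsewhere the alternatives reused the same fold changes, so the direction could not change. Members called in neither run were not checked for direction. At an adjusted p under 0.01, the cytosolic calls became 0 for HepG2 MS7126N2, 4 for hairpin #665, 6 for hairpin #667 and 4 for WEHI-231 MS8815, the mitochondrial calls became 2 for Huh7 MS7126 and 2 for the Huh7 EZH2 hairpin, and the cytosolic differences became 7 against C24 and 2 against MS7126N2. A covariance for shared DMSO libraries, taken as 0.5 of each product of SEs, gave 8 cytosolic differences between MS7126 and MS7126N2 and 1 mitochondrial difference between MS7126 and MS7126N1. It gave 7 cytosolic and 1 mitochondrial between MS8815 and EPZ-6438, and 2 cytosolic and 2 mitochondrial between MS8815 and MS8815N. For the Huh7 EZH2 hairpin, DESeq2 and the authors' deposited adjusted p each gave 13 cytosolic calls and 1 mitochondrial call. Leaving out 1 library gave 14 to 16 cytosolic and 1 to 4 mitochondrial calls, with the lone library of a group assumed to vary like the other group, and 1 mitochondrial call stayed without control library 1. With the replicate number as a block there were 16 cytosolic and 3 mitochondrial calls, VARS2 being lost. Over all genes tested, the deviations of same-numbered libraries from their group means had a correlation of -0.0339. With 2 libraries a group, this value cannot show whether the number pairs libraries. Adjusted over every gene with a p-value, DARS and RARS were no longer called with MS8815. The cause of these moves was not tested, apart from the stricter threshold and the smaller number of libraries. The other 83 counts stayed within 1.5 times of the value reported. With 2 libraries a group and values per library in 1 comparison, left-out libraries could not be tried elsewhere.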
